A study of Mus musculus with 6 samples.

Results

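A set of 10 genes of hydrogen peroxide, glutathione and superoxide handling were followed in mouse oocytes arrested at metaphase II, the stage at which the egg waits for fertilisation. They were chosen by name, with earlier results of these data known. They are 4 peroxiredoxins (Prdx1, Prdx2, Prdx3 and Prdx6), the glutathione S-transferase Gstp1, the glutathione synthesis genes Gclc and Gclm, the glutathione peroxidase Gpx3 and the superoxide dismutases Sod1 and Sod2. All 10 were found among the 14165 genes of the table of pools and among the 54658 gene entries of the single-oocyte table.

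The series asked how oocytes of young and aged mice differ, and what the loss of Plat does; Plat codes for the secreted protease tPA. It held 6 samples: 1 of 35 single young oocytes, 1 of 59 single aged oocytes, 2 pools of 10 young oocytes treated with a control small interfering RNA (siCtrl) and 2 pools of 10 young oocytes treated with a small interfering RNA against Plat (siPlat). No allele or genotype change was named for any of them. The sources used here do not give the strain, the age in weeks, the animals behind each library or how the small interfering RNA was delivered. The single oocytes carried no treatment label, and both kinds of pool had received a small interfering RNA.

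Superoxide dismutases turn superoxide into hydrogen peroxide, and peroxiredoxins and glutathione peroxidases then reduce the peroxide to water. Peroxiredoxins are recharged mainly by thioredoxin and thioredoxin reductase, whereas glutathione peroxidases and transferases use glutathione, whose first and rate-limiting step of synthesis is made by the enzyme built from Gclc and Gclm. Many of these genes can be activated by the transcription factor Nrf2 (Nfe2l2), which binds antioxidant response elements. A mature oocyte makes little new RNA, so the transcripts measured here are mostly a store laid down during growth.

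The stretches in front of Prdx1 and Gstp1, which passed the test in the pools, and of Prdx2, the close relative of Prdx1 that did not, are given first. Each is the 250 bases before the gene's start, 5′ to 3′ on the gene's own strand, from RefSeq on GRCm38.p6, the assembly that mm10 names. They lie at chr4:116685349-116685598 (plus strand) for Prdx1, chr19:4037913-4038162 (minus strand) for Gstp1 and chr8:84969372-84969621 (plus strand) for Prdx2. Capitals mark matches, on either strand, to TGACNNNGC, the core of the antioxidant response element, and to TGANTCA, the AP-1 core, which was added to the search after these sequences had been read.
Prdx1: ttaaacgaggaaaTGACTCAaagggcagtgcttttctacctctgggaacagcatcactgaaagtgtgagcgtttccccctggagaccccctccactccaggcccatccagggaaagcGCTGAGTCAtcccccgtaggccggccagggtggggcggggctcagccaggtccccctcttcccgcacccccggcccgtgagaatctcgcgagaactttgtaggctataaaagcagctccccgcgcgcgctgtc
Gstp1: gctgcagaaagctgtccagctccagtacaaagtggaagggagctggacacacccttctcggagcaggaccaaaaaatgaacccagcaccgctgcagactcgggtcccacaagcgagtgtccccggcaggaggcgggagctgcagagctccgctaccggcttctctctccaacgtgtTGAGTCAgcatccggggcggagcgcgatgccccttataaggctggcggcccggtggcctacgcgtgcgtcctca
Prdx2: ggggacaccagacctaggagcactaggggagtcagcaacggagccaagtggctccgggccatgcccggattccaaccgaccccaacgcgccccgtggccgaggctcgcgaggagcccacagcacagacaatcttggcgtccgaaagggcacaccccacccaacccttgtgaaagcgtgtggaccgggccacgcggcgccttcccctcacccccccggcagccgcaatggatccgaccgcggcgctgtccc
The Prdx1 window held TGANTCA at 237 and 131 bases before the start, and the second of these lay within a match of TGACNNNGC on the opposite strand at 133 bases. The Gstp1 window held 1 TGANTCA, 74 bases before the start, and the Prdx2 window held neither motif. Of the 8 members with a promoter entry, Gclm and Sod1 also held TGACNNNGC, at 134 and 56 bases, and Prdx3, Gpx3 and Sod2 held neither; Prdx6 and Gclc had no entry. Among 27025 promoters of the same length, 10.1% held TGACNNNGC and 6.87% held TGANTCA, so a match is a description of these letters and no sign of a factor bound there.

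The pools held 12142884 to 17475952 gene counts, the young oocytes 5480050 to 11894782 and the aged oocytes 2018226 to 9502184. Aged oocytes fell into 38 with at most 5% of their counts from mitochondrially encoded genes (0.947 to 2.97%) and 21 above that limit (6.78 to 61.6%, median 32.8%), while no young oocyte exceeded 1.92%. The 12 oocyte markers summed to 16402 to 25120 counts per 1000000 (CPM) in young oocytes, to 16253 to 26155 CPM in aged oocytes of low mitochondrial share and to 713.5 to 5033 CPM in those of high share. The 17 cumulus and granulosa markers summed to 64.9 to 123 CPM, 64.4 to 126 CPM and 7.17 to 139 CPM in the same order, with Inhbb at 0 in all 3. Only 4, 4 and 3 of the 17 were above 1 CPM, and Cyp19a1 alone stood at 70.3, 65.05 and 6.51 CPM. Star was also lowest in aged oocytes of high share, at 1.312, 2.154 and 0.02078 CPM. Nr5a2 (12.91, 16.97 and 23.7 CPM) and Kitl (9.054, 11.17 and 21.06 CPM) were highest there. In young oocytes Amh, Amhr2, Foxl2 and Fshr were at 0 as well. In the pools the oocyte markers summed to 25989 to 27222 CPM in siCtrl and 25414 to 29999 CPM in siPlat, and the 8 cumulus markers listed there to 50.2 to 58.1 and 47.7 to 63.1 CPM. These sums do not show single oocyte markers, most of which were lower in siPlat, as given below. Plat itself read 441 CPM in siCtrl 1, 439 in siCtrl 2, 51.4 in siPlat 1 and 39.0 in siPlat 2.

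In young single oocytes Prdx1 was the most abundant of the 10 transcripts per length of exon. Its summed counts came to 381 CPM per kb, rank 98 of 27906 genes with a count. Gpx3, a secreted peroxidase known from plasma, followed at 117.7 CPM per kb, and Prdx2 at 52.3 CPM per kb. On this length these 3 stood clear of each other and of the rest. The lowest oocyte of each lay above the highest oocyte of the next (Gpx3 76.8 against Prdx2 64.1 CPM per kb, Prdx2 40.6 against Sod1 37.6 CPM per kb). The length joins all annotated exons, 3970 bases for Sod1 and 3050 for Prdx2. Their longest coding transcripts had 641 and 1612 bases, so the order below Prdx1 and the gap between Prdx2 and Sod1 depend on the length chosen. Sod1, the cytosolic copper and zinc enzyme, stood at 19.5 CPM per kb, Gstp1 at 13.2, Gclm at 8.99, Sod2 at 5.08 and Gclc at 2.91 CPM per kb. From Sod1 downwards the ranges of neighbours overlapped. Prdx3, the mitochondrial peroxiredoxin, and Prdx6, which uses glutathione in place of thioredoxin, were lowest at 1.52 and 1.33 CPM per kb, and their interquartile ranges overlapped as well.

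In the siPlat pools, Prdx1 and Gstp1 were called higher and none of the 10 was called lower. Prdx1, the main cytosolic peroxiredoxin, stood at 4685 CPM in siCtrl 1, 4262 CPM in siCtrl 2, 9953 CPM in siPlat 1 and 8609 CPM in siPlat 2. Both siPlat pools lay far above both siCtrl pools, with means of 4474 ± 299 and 9281 ± 950.4 CPM (SD, n = 2). The log2 fold change was 1.05 with a standard error (SE) of 0.14 and an adjusted p of 0.00283 by edgeR's quasi-likelihood test with Benjamini-Hochberg adjustment over 11136 genes. Prdx1 passed in each of 12 other settings, leaving out each library among them, with log2 fold changes of 0.94 to 1.17 and adjusted p from 5.15e-08 to 0.0341. In a pool of 10 oocytes, a change in every oocyte and a larger change in a few cannot be told apart.

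Gstp1, which joins glutathione to electrophiles, measured 48.7 CPM in siCtrl 1, 53.8 in siCtrl 2, 96.1 in siPlat 1 and 96.8 in siPlat 2. The groups did not overlap and the means were 51.2 ± 3.57 and 96.4 ± 0.470 CPM (SD, n = 2). Its log2 fold change was 0.91 (SE 0.18, adjusted p = 0.0223 by edgeR). The call did not hold without siCtrl 1 (adjusted p = 0.184) or without siCtrl 2 (adjusted p = 0.112), where the log2 fold changes were 0.85 and 0.98, and it held in the other 10 settings (lowest adjusted p = 0.000307). Gstp2, a neighbouring pi-class gene that matched Gstp1 at 94.2% of 798 aligned bases, measured 15.3 and 18.4 CPM in the siCtrl pools against 30.2 and 34.2 CPM in the siPlat pools. Its log2 fold change was 0.93 (SE 0.23, adjusted p = 0.0494 by edgeR), called in 7 of 12 other settings with adjusted p from 0.0149 to 0.319; it was lost without siCtrl 1 (0.319) and without siCtrl 2 (0.158). Reads of the pair can be split between the copies, so the share of each is uncertain, although the ratio of Gstp1 to Gstp2 counts stayed between 2.83 and 3.19 in the 4 pools. Gstp-ps, a processed pseudogene that matched Gstp1 at 97.6% of 631 aligned bases, had no entry among the genes of the pools. It stood at 1.42 CPM in young single oocytes.

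Prdx2, a cytosolic peroxiredoxin known for its abundance in red cells, measured 643 CPM in siCtrl 1, 814 in siCtrl 2, 922 in siPlat 1 and 1088 in siPlat 2. Both siPlat values were above both siCtrl values, but the log2 fold change of 0.46 (SE 0.16) had an adjusted p of 0.154 by edgeR. It passed in 1 of 12 other settings, without siPlat 1 (adjusted p = 0.0252). Counts of Prdx1 per count of Prdx2 were 7.28 and 5.24 in siCtrl and 10.8 and 7.91 in siPlat. Prdx3 measured 6.27 and 13.1 CPM in the siCtrl pools against 10.4 and 9.03 CPM in the siPlat pools, and Prdx6 20.3 and 18.2 CPM against 19.6 and 17.2 CPM. For both of these the groups overlapped, with log2 fold changes of 0.01 (SE 0.37) and -0.06 (SE 0.24).

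The 2 subunit genes of glutamate-cysteine ligase lay on opposite sides of 0. Gclc, the catalytic subunit, measured 10.6 CPM in siCtrl 1, 9.61 in siCtrl 2, 6.12 in siPlat 1 and 7.23 in siPlat 2. Gclm, the modifier subunit, measured 38.1, 34.4, 46.2 and 56.0 CPM in the same order. Neither overlapped between the groups and neither passed the edgeR test, with log2 fold changes of -0.60 (SE 0.31, adjusted p = 0.337) for Gclc and 0.50 (SE 0.20, adjusted p = 0.204) for Gclm. Within a library there were 3.58 Gclm counts per Gclc count in both siCtrl pools, and 7.55 and 7.75 in siPlat 1 and 2. That ratio was not tested.

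Sod2, the manganese enzyme of mitochondria, measured 77.6 CPM in siCtrl 1, 58.6 in siCtrl 2, 99.4 in siPlat 1 and 99.6 in siPlat 2, without overlap; its log2 fold change was 0.55 (SE 0.19, adjusted p = 0.153 by edgeR). Sod1 measured 35.3 and 37.9 CPM in the siCtrl pools against 48.3 and 33.9 CPM in the siPlat pools, so that the siPlat pools lay on either side of siCtrl (log2 fold change 0.17, SE 0.22). Gpx3 measured 17.5 and 8.83 CPM in the siCtrl pools against 12.7 and 16.5 CPM in the siPlat pools, with full overlap (log2 fold change 0.15, SE 0.34). The plot of the pools by gene shows the narrow pairs of Prdx1 and Gstp1 beside the wide pairs of Prdx3 and Gpx3.

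**Figure D1:**
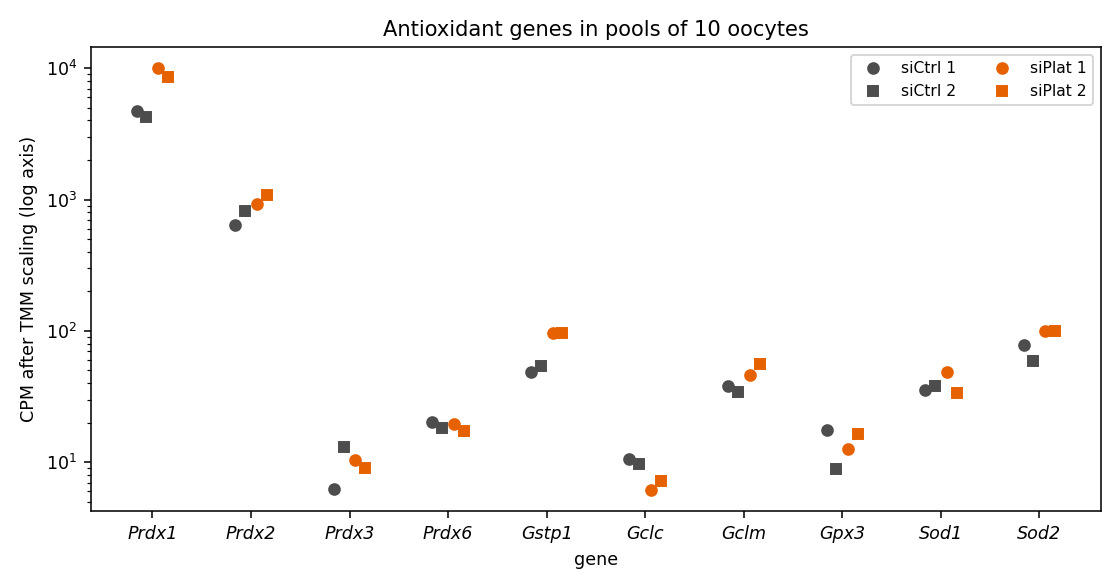
CPM after TMM scaling (log axis) of the 10 genes in the 2 siCtrl pools (grey) and the 2 siPlat pools (orange); each point is 1 pool of 10 oocytes. Prdx1 at 4685 and 4262 against 9953 and 8609 CPM and Gstp1 at 48.7 and 53.8 against 96.1 and 96.8 CPM are the called members.

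Over the list, 2 of 10 members were called higher and 0 lower, where 3.54% of all tested genes were called, 2.13% higher and 1.41% lower. The members were chosen with earlier results of these data known, so the comparison with all genes is a description. All 10 passed the filter on low counts. An unadjusted p under 0.05 was reached by 5 of 10 members and by 18.8% of all tested genes, and the groups did not overlap for 6 of 10 members and for 49.4% of all tested genes, a share near that of the members. Of the 10 log2 fold changes, 8 were above 0, and their median was 0.32 against -0.03 over all tested genes. With library totals in place of TMM factors, the median of all genes moved by -0.11 and the calls split into 146 higher and 205 lower (41.6% higher) rather than 237 and 157 (60.2% higher); Prdx1 and Gstp1 were called higher under both. Without siCtrl 1 or without siCtrl 2 the members called came down to 1, Prdx1, and without siPlat 1 they were 3. Oocyte markers moved in the same comparison, with 0 of 12 called higher and 3 of 12 called lower. Their median log2 fold change was -0.74, with 4 of 12 above 0, and 9 of 12 had an unadjusted p under 0.05 by edgeR. Of 5 tested cumulus markers 0 were called. The part of either kind of marker in these changes was not tested.

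Other redox genes were called at a share near that of all genes. In 4 wider lists, 77 genes in all, 52 were tested, 1 was called higher, Gstp2, and 0 lower, or 1.92% against 3.54% of all tested genes; their median log2 fold change was 0.06 and 6 had an unadjusted p under 0.05. Without siCtrl 1 or without siCtrl 2 the count was 0 (1.34% and 1.37% of all genes were then called), without siPlat 1 it was 2 (3.39%, with 713 calls over all genes) and without siPlat 2 it was 6 (10.3% against 9.66%). In the peroxiredoxin, thioredoxin and glutaredoxin list 0 of 14 passed by edgeR, 0 of them with an unadjusted p under 0.05; log2 fold changes were -0.26 (SE 0.15) for Txnip, which binds and inhibits thioredoxin, 0.43 (SE 0.22) for Txn1, cytosolic thioredoxin, 0.31 (SE 0.19) for Glrx, glutaredoxin, and 0.27 (SE 0.19) for Txnl1, a thioredoxin-like protein. In the glutathione list 1 of 19 passed, while Ggct, which breaks down gamma-glutamyl peptides, stood at 0.26 (SE 0.14), the transferases Gstm5 and Mgst3 at 0.49 (SE 0.23) and 0.13 (SE 0.18), and Slc7a11, the cystine importer, at -0.47 (SE 0.17). Among other superoxide and peroxide genes 0 of 4 passed: Oxr1 stood at 0.07 (SE 0.26), Park7 at 0.05 (SE 0.29), and the metallothioneins Mt1 and Mt2, both near 1 CPM, at 0.41 (SE 0.73) and -1.51 (SE 0.84). Among Nrf2 regulators, targets and NADPH suppliers 0 of 15 passed and 2 had an unadjusted p under 0.05. There the NADPH-making enzymes Me1 and G6pdx stood at -0.13 (SE 0.15) and -0.27 (SE 0.18), Taldo1, of the pentose phosphate pathway, at 0.11 (SE 0.17), and Blvra, biliverdin reductase, at -0.69 (SE 0.19, adjusted p = 0.0789 by edgeR).

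Each age was 1 sample of single oocytes, so the ages were not tested against each other, and the intervals below are exact 95% Poisson intervals that cover counting error only, with PCR reads treated as independent. Summed over all 59 aged oocytes, 4 of 10 members were higher than in young oocytes and 6 were lower, where 43.6% of genes with at least 5 CPM were higher. Log2 ratios, with 1 CPM added, ran from -0.70 for Gclm to 0.25 for Prdx6, with a median of -0.29 against -0.07 for all such genes. Prdx3 lay below 5 CPM, and without it 3 of 9 members were higher and the median was -0.31. None of the 10 reached a 2-fold ratio, where 2.47% of all such genes were 2-fold higher and 0.783% 2-fold lower. These sums mix oocytes of both mitochondrial classes, which differed at least 2-fold in summed level for every member but Prdx2, and are therefore split in what follows.

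Aged oocytes of low mitochondrial share held the members at levels close to those of young oocytes. Prdx1 ranged from 919 through a median of 1173 to 1451 CPM in young oocytes and from 970 through 1230 to 1822 CPM in these aged ones. Of the 38, 31 lay within the young range and 7 above it. Prdx2 ranged from 124 through 160 to 196 CPM and from 108 through 153 to 223 CPM, with 35 of 38 inside the young range. The summed log2 ratios were 0.14 (0.13 to 0.15) for Prdx1 and -0.04 (-0.07 to -0.01) for Prdx2.

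The largest ratios in this class belonged to Prdx6 and Prdx3, both of low level. Prdx6 ranged from 0.603 through 5.95 to 21.6 CPM in young oocytes and from 1.15 through 8.84 to 22.1 CPM in aged ones. Prdx3 ranged from 0.127 through 1.94 to 6.56 CPM and from 0.149 through 3.14 to 11.7 CPM. Gstp1 ranged from 7.15 through 19.3 to 37.8 CPM and from 7.99 through 24.3 to 59.1 CPM. The ranges overlapped in every case, as they did for all 10 members (0.119% of genes had ranges apart), and the log2 ratios of the sums were 0.58, 0.53 and 0.38.

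The glutathione synthesis genes, Gpx3 and Sod1 were lower in this class. Gclm ranged from 30.5 through 58.5 to 74.5 CPM in young oocytes and from 20.6 through 43.6 to 87.8 CPM in aged ones. Gclc ranged from 4.80 through 10.8 to 22.2 CPM and from 4.11 through 8.18 to 22.8 CPM. Gpx3 ranged from 139 through 207 to 291 CPM and from 97.4 through 176 to 236 CPM, with 8 of 38 aged oocytes below the young range and 0 above it. Sod1 ranged from 46.9 through 74.1 to 149 CPM and from 39.7 through 65.7 to 116 CPM, and Sod2 from 39.4 through 50.4 to 75.1 CPM and from 33.2 through 48.9 to 67.9 CPM. Log2 ratios of the sums were -0.29 for Gclm, -0.19 for Gclc, -0.27 for Gpx3, -0.18 for Sod1 and -0.04 for Sod2. Together, 4 of 10 members were higher, where 59.8% of genes with at least 5 CPM were, and their median log2 ratio was -0.04 against 0.08. Without Prdx3, again below 5 CPM, 3 of 9 were higher, with the same median. In this class too 0 of 10 reached 2-fold, where 1.63% of genes were 2-fold higher and 0.214% 2-fold lower.

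The direction of these ratios depends on the scale. ERCC spike-ins are synthetic RNAs added to each lysate, and the median oocyte held 63.7 gene counts per ERCC count when young, 29.5 when aged with a low mitochondrial share and 15.2 when aged with a high share. Per ERCC count all 10 members were lower in aged oocytes of low share, with log2 ratios from -1.11 to -0.09 and a median of -0.86, where the median of all genes was -0.73. Relative to that shift, Prdx3, Prdx6 and Gstp1 stood above the median gene (-0.09, -0.15 and -0.42) and Gclm and Gpx3 below it (-1.11 and -1.10), as they did on the CPM scale.

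Aged oocytes of high mitochondrial share held little Prdx1, while their median of Prdx2 stood near that of young oocytes with a far wider spread. Prdx1 ranged from 1.84 through a median of 35.4 to 338 CPM in these 21 oocytes, and every one of them lay below every young oocyte. Prdx2 ranged from 20.1 through 149 to 1019 CPM, with 9 of 21 below the young range, 5 within it and 7 above it. The summed levels were 87.5 CPM (85.6 to 89.4) for Prdx1, against 1159 CPM in young oocytes, and 268 CPM (265 to 271) for Prdx2, against 159 CPM. Prdx2 was the 1 member of 10 that was higher by this sum, where 29.9% of genes with at least 5 CPM were. On this scale, with mitochondrial counts in the total, that direction rested on 3 oocytes near the 5% limit, with shares of 6.78, 6.80 and 11.5%. Without them the other 18 summed to 120 CPM of Prdx2 and 36.3 CPM of Prdx1. By CPM, Prdx2 was then lower than in young oocytes too (log2 ratio -0.41, against 0.75 with all 21), and its median was 115 CPM. These 18 had mitochondrial shares of at least 18.2%, and their ratio with mitochondrial counts left out of the total was not computed. Globin and other blood markers were uneven in this class: the 12 of them summed to 0 to 182 CPM with a median of 1.39 CPM, against 4.74 to 21.3 CPM with a median of 12.4 CPM in young oocytes. Hba-a1, a haemoglobin chain, was at 0 in 14 of 21 and reached 86.7 CPM, against at most 0.370 CPM in young oocytes. By summed level Hbb-bs (3.449 against 0.05274 CPM), Hba-a2 (3.74 against 0.006592 CPM) and Lyz2 (0.3013 against 0 CPM) were also higher than in young oocytes. C1qb (1.184 against 9.997 CPM) and Cd68 (0.1766 against 2.617 CPM) were lower. Ptprc, C1qa, C1qc, Adgre1, Tyrobp and Cd74 were at 0 in this class. The part of blood markers in the Prdx2 level was not tested.

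Inside single oocytes the 2 peroxiredoxins changed places. Prdx1 gave 5.72 to 9.96 counts per count of Prdx2 in young oocytes (median 7.22) and 5.76 to 11.1 in aged oocytes of low share (median 8.05). In aged oocytes of high share the ratio was 0.0123 to 5.51 with a median of 0.298, and it lay below 1 in 20 of 21. This ratio does not depend on the library total or on spike-ins. The 3 oocytes with the lowest shares of the class held 1019, 821 and 592 CPM of Prdx2 and 298, 260 and 338 CPM of Prdx1, the highest of the class for both genes. Across the 21, with mitochondrial counts left out of the total, Spearman's rho with the mitochondrial share was -0.743 for Prdx2 and -0.536 for Prdx1, as a description of oocytes that share 1 sample. Per ERCC count Prdx2 was lower than in young oocytes (log2 ratio -1.69) but above the median of all genes (-3.08), and Prdx1 was below it (-6.10). With mitochondrial counts left out of the total, the log2 ratios were 1.24 for Prdx2 and -3.22 for Prdx1, and -0.34 for the median gene.

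**Figure D2:**
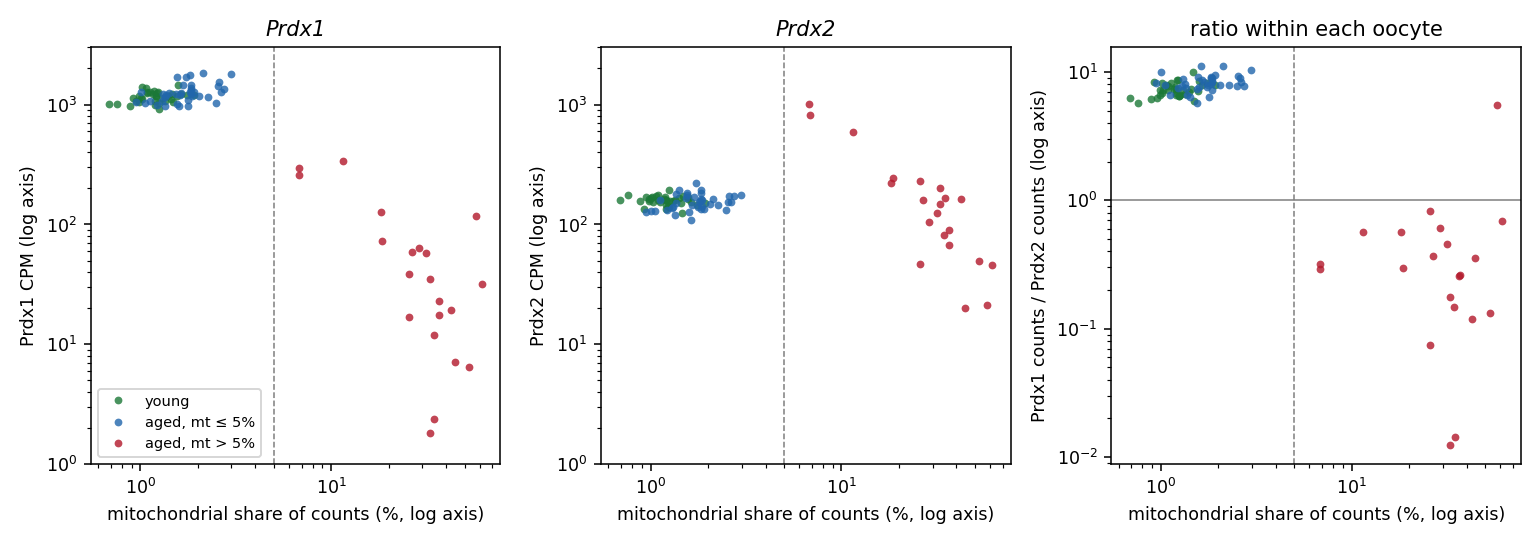
Prdx1 CPM, Prdx2 CPM and the ratio of their counts (log axes) against the mitochondrial share of counts (%, log axis) in young oocytes (green), aged oocytes of at most 5% (blue) and aged oocytes above 5% (red); each point is 1 oocyte and the dashed line marks 5%. The ratio is 5.72 or higher in all young and all low-share oocytes and below 1 in 20 of the 21 red points.

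The exons of Prdx2 overlap those of Rnaseh2a by 177 bases (5.80% of them) and of Junb by 173 bases (5.67%) on the opposite strand, and the sources used here do not say whether counting used strand. Rnaseh2a and Junb stood at 0.719 and 0.204 CPM in young oocytes and at 0.145 and 0.0208 CPM in aged oocytes of high share, far below Prdx2. Prdx1 and Prdx2 also have processed pseudogenes in the annotation that match them closely over part of the transcript. The nearest, Gm21399 for Prdx1 (98.3% identity over 597 bases) and Tdpx-ps1 for Prdx2 (96.3% over 597 bases), were at 3.64 and 0.669 CPM in young oocytes. Gm8566, which matches Sod1 in the same way (97.8% over 465 bases), was at 0.962 CPM.

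The other 8 members were all at least 2-fold lower in aged oocytes of high share than in young ones. With Prdx1, that made 9 of 10, where 46.8% of genes with at least 5 CPM were, and the median log2 ratio of the 10 was -2.10 against -0.85. The limit of 5 CPM was set on the mean of the 2 groups, here and for all genes. Prdx3 and Prdx6 lay below it in this comparison, and over the other 8 members the count was 7 and the median -2.76. Of these 8, Gclm (3.22 against 56.6 CPM) and Gclc (0.592 against 10.9 CPM) passed the limit only through young oocytes, where they were higher. The oocyte ranges did not overlap for 4 of 10, Prdx1, Gclm, Gpx3 and Sod1, where 16.1% of genes lay wholly below the young range. Gclm ranged from 0 through 1.43 to 17.5 CPM, Gpx3 from 0.358 through 7.93 to 134 CPM and Sod1 from 2.80 through 9.45 to 27.1 CPM. Sod1 kept the narrowest spread of the 10 in this class, with a coefficient of variation of 55.1% over oocytes. Sod2 ranged from 0.392 through 14.8 to 40.0 CPM, with 20 of 21 below the young range.

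The 4 members of lower level were often without any count in this class. Gstp1 was at 0 in 12 of 21 oocytes and reached 30.1 CPM in the highest, so that 16 lay below the young range and 5 within it. Gclc was at 0 in 16 of 21, and 1 oocyte held 12.8 CPM. Prdx3 and Prdx6 were at 0 in 8 and 9 of 21 and reached 2.17 and 8.10 CPM. With every oocyte thinned to 2000000 counts, 3 of 21 still had a Gclc count, 7 a Prdx3 count, 9 a Gstp1 count, 10 a Prdx6 count and 16 a Gclm count, where 31 of 35 young oocytes had a Prdx3 count, 34 a Prdx6 count and 35 a count of each of the other 3. Log2 ratios of the sums were -1.34 for Gstp1, -2.91 for Gclc, -3.77 for Gclm, -1.25 for Prdx3, -1.54 for Prdx6, -2.87 for Gpx3, -2.65 for Sod1 and -1.45 for Sod2. Without the 3 oocytes of lowest share every member was lower than in young oocytes by CPM with mitochondrial counts in the total. The ratios that moved by more than the spread of young oocytes were -4.96 for Prdx1, -2.45 for Prdx6, -2.80 for Gstp1, -4.20 for Gpx3 and -1.73 for Sod2, besides Prdx2. Summed oocyte markers were lower as well in these oocytes, as given above, and the mitochondrial share that defines the class takes a median of 32.8% of their counts; the part of either in the members' levels was not tested.

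**Figure D3:**
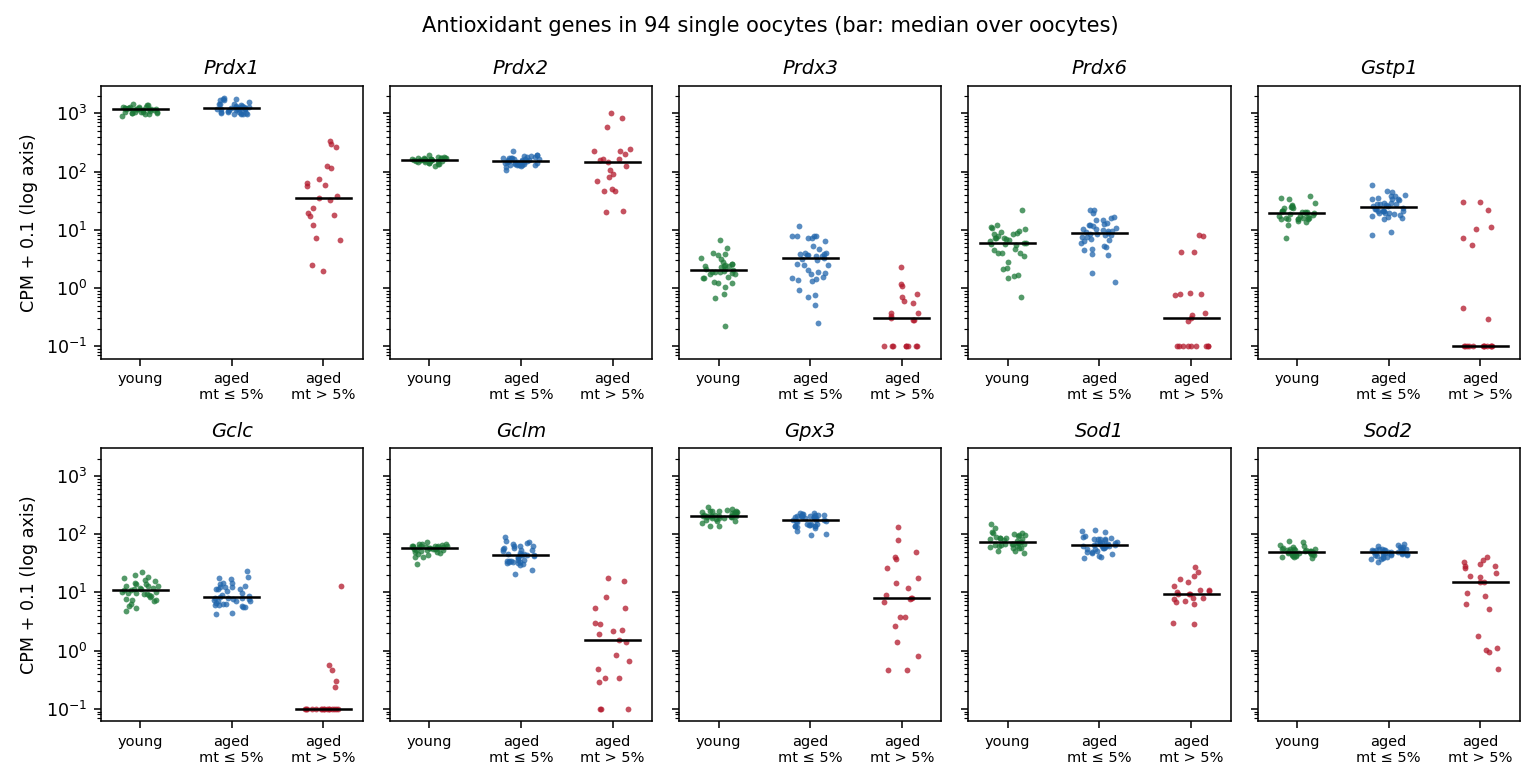
CPM plus 0.1 (log axis) of the 10 genes in each of 94 single oocytes, in young oocytes (green), aged oocytes with a mitochondrial share of at most 5% (blue) and aged oocytes above 5% (red); the bar is the median over oocytes. The first 2 columns of points overlap for every gene. In the red column the Prdx2 median is 149 CPM against 160 CPM in young oocytes, and 115 CPM without the 3 red oocytes of lowest mitochondrial share. The red medians of the other members lie well below their young medians.

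Among the wider lists, 34 genes had at least 5 CPM in the comparison of aged oocytes of low share with young ones. Of these, 21 were higher and 13 lower, with a median log2 ratio of 0.15, and 33 were within 2-fold. The other, Tkt, transketolase of the pentose phosphate pathway, stood at 2.61 CPM in young oocytes and 8.13 CPM in aged ones, and so reached the mean of 5 CPM only through the group in which it was higher. The most abundant genes of each list stood near their young level. Txnip was at 1173 CPM in young and 1314 CPM in aged oocytes of low share, Txnrd1, thioredoxin reductase, at 211 and 201 CPM, Slc3a2, the partner chain of the cystine importer, at 441 and 401 CPM, and Mgst3 at 298 and 328 CPM. Me1 was at 589 and 680 CPM, G6pdx at 159 and 202 CPM, Oxr1 at 10.6 and 8.22 CPM and Park7 at 4.65 and 5.56 CPM.

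In aged oocytes of high share, 17 of 27 wider genes were at least 2-fold lower than in young oocytes, with log2 ratios of -5.67 to -1.24, and 1 was at least 2-fold higher (Sesn3, 1.01, a sestrin, named after its value was seen), where 46.8% and 10.5% of all genes with at least 5 CPM were. Of the genes named above, Txnip stood at 22.0 CPM, Txnrd1 at 5.01, Slc3a2 at 17.1 and Mgst3 at 16.7 CPM, and all 21 Txnrd1 values lay below the young range. Glrx stood at 5.82 CPM, Txn1 at 1.52, Gstm5 at 7.26, Slc7a11 at 25.3, Ggct at 61.6, Taldo1 at 3.61 and Blvra at 4.86 CPM, against 178, 25.3, 158, 258, 276, 144 and 115 CPM in young oocytes. Some of the lower genes, Txn1, Taldo1 and Blvra among them, reached the mean of 5 CPM only through young oocytes, where they were higher. Me1 was among the genes that were not lower, with a median over oocytes of 678 CPM against 544 CPM in young oocytes and 14 of 21 within the young range. G6pdx had a median of 109 CPM against 160 CPM.

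Between young oocytes, Prdx2 and Prdx1 varied least, with coefficients of variation of 8.80 and 10.7%, followed by Gclm at 16.1%, Sod2 at 16.7% and Gpx3 at 16.9%. Sod1, Gstp1 and Gclc varied by 28.0, 32.4 and 37.2%, and the lowest-level members Prdx3 and Prdx6 by 57.5 and 62.8%, values that include counting error. In aged oocytes of low share the coefficient was 18.9% for Prdx1, 15.6% for Prdx2 and 33.5% for Gclm. It was larger than in young oocytes for 7 of 10 members and for 57.2% of all genes with at least 5 CPM, and these oocytes were also less deeply sequenced, with a median of 7075729 against 8564642 counts.

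Over the 45 pairs, Spearman's rho had a median of 0.0451 across the 35 young oocytes, with 28 pairs above 0, and of 0.138 across the 38 aged oocytes of low share, with 34 above 0. Over all pairs of 5129 genes with at least 20 CPM the medians were 0.004 and 0.003, with 50.4% of pairs above 0 in both. Of the members, Prdx3, Prdx6 and Gclc lay below that limit. In the aged oocytes the 10 pairs among Prdx1, Prdx2, Gstp1, Sod1 and Sod2, picked out after their values were seen, lay between 0.430 and 0.677. In these oocytes the same 5 genes, scaled to nuclear counts, also rose with the mitochondrial share. Their rho with it was 0.515, 0.320, 0.374, 0.656 and 0.569 in that order, and the part of the share in the pairs was not tested. Prdx1 and Gstp1, both called in the pools, had rho of 0.452 in young and 0.677 in aged oocytes, Prdx1 and Prdx2 0.233 and 0.627, Prdx2 and Gstp1 0.226 and 0.623, Sod1 and Sod2 0.159 and 0.625, and Prdx2 and Sod2 0.516 and 0.490. Of the 10 members, Gpx3 had the highest rho with Plat, at 0.680 and 0.800, and Gclc the lowest, at -0.539 and -0.692. The called members Prdx1 and Gstp1 stood at 0.00028 and -0.435, and at -0.0219 and -0.530, with Plat. Sod1, scaled to nuclear counts, had the highest with the mitochondrial share, at 0.696 and 0.656, and Gpx3 the lowest, at -0.396 and -0.333. On the same scale Plat stood at -0.287 and -0.614 with the share, and Gclc at 0.313 and 0.454. In aged oocytes of high share Gpx3 with Plat stood at -0.0662 and Sod1 with the share at 0.370. With the library total, Plat stood at 0.417 and 0.367 and Sod1 at -0.566 and -0.172 in young and low-share aged oocytes. Of 5128 genes with at least 20 CPM, the 5 most like Prdx1 over young oocytes were Trmt10c (0.624), Sdhaf4 (0.620), Twistnb (0.612), Mob4 (0.589) and Trim30a (0.582). In aged oocytes of low share these stood at 0.0122, 0.716, 0.159, 0.793 and 0.460, so Sdhaf4 and Mob4 ran with Prdx1 in both classes. All of these values are descriptions across oocytes that share a sample and differ in depth.

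**Figure D4:**
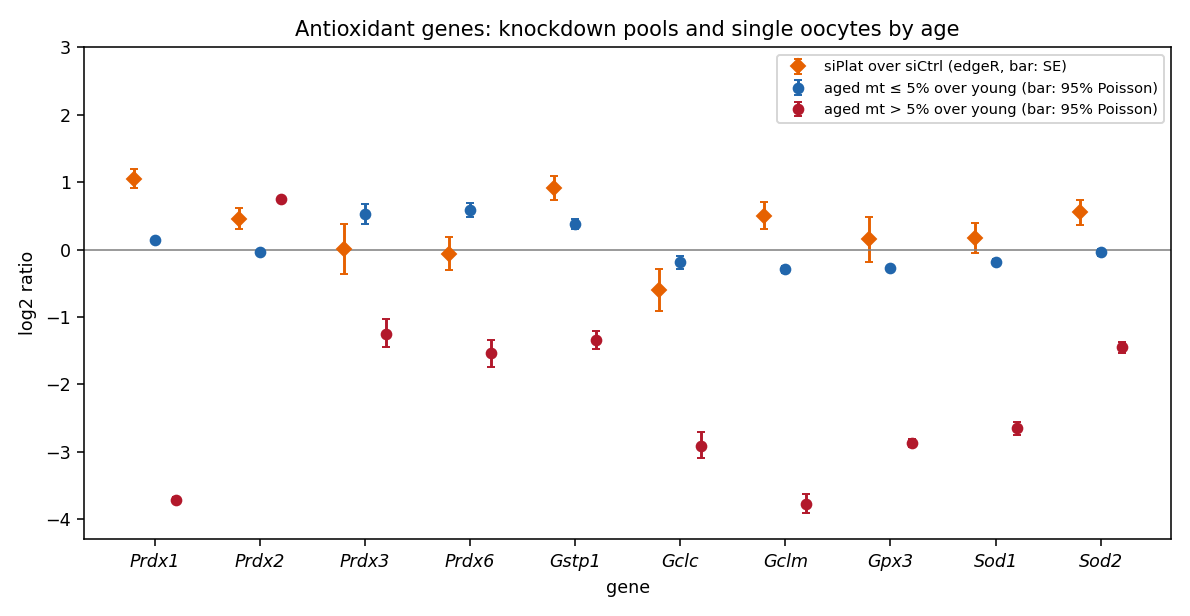
Log2 ratios of the 10 genes for siPlat over siCtrl pools (orange, edgeR, bar: SE), aged oocytes of at most 5% mitochondrial share over young (blue, bar: exact 95% Poisson interval) and aged oocytes above 5% over young (red, same interval). Prdx1 stands at 1.05, 0.14 and -3.71 and Prdx2 at 0.46, -0.04 and 0.75.

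Set side by side, the control pools and the young single oocytes gave different orders for some members, in tables that were counted and scaled separately. Per kb of exon, Gpx3 stood at 7.25 CPM in siCtrl and 117.7 CPM in young oocytes, while Prdx1 stood at 1470 and 381 CPM, Prdx2 at 239 and 52.3 CPM and Gstp1 at 33.1 and 13.2 CPM. Prdx1 led in both tables. The pools differed from the single oocytes in oocytes per library, treatment and gene entries, and the table of pools held 0 mitochondrially encoded genes, so these differences cannot be told apart from those of the tables.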

How the data were processed

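Polyadenylated RNA was measured by Smart-seq2 in 4 pools of 10 oocytes and 94 single oocytes. The authors deposited unnormalised read counts per gene in 2 tables; STAR 2.7.10b, HTSeq 0.13.5 and mm10 are named per the submitters' processing notes. The annotation and strand setting are not given in the sources used here.

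Pools were compared with edgeR 4.0.16 (R 4.3.3; TMM factors, default expression filter at 10 counts and a total of 15, robust quasi-likelihood test, Benjamini-Hochberg threshold 0.05, no covariate), tested on simulated data. DESeq2 1.42.0 and limma 3.58.1 (voom) were alternatives, with other scalings and filters and each library left out. The labels name no animals, so p-values measure only the spread between these samples, which may be technical. Same-numbered pools did not deviate together (correlation -0.0616).

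Single-oocyte counts were summed per group as CPM of gene counts, without 92 ERCC entries, and split at a mitochondrial share of 5%; ratios added 1 CPM. A further unnamed column held no values and was unused. Exon lengths come from GENCODE on GRCm38.

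The members and lists were chosen with earlier results of these data known. The 10 members were all named. Of the wider lists, called genes, the 4 most abundant uncalled genes per list in the pools, and in single oocytes genes with a 2-fold ratio (all or low-share aged oocytes over young) and the 2 most abundant per list were named; Sesn3 was named after its value was seen.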

Additional observations from a re-analysis of the deposited data

How the results depend on the processing

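Among 12 other settings for the pools, the members called stayed at 2 except for 1 to 3 when each library was left out in turn. The wider genes called were 1, and 0 with upper-quartile factors, 0 with library totals, 2 with DESeq2 (Gstp2 and Blvra), 0 with the replicate block and 0 to 6 without 1 library. Calls over all genes were 394, 678 with DESeq2, 157 to 1145 without 1 library and 273 with the replicate block. With the replicate numbers as a block Prdx1 (adjusted p = 0.00153 by edgeR) and Gstp1 (0.0418) were called and Gstp2 was not (0.0765); the labels do not say that the numbers pair the pools. Some uncalled members changed sign: Prdx3 to -0.10 with library totals, -0.42 without siCtrl 1 and -0.10 without siPlat 1 (-0.42 to 0.63 without 1 library), Prdx6 to 0.02 without siCtrl 1 and 0.04 without siPlat 2 (-0.16 to 0.04), Gpx3 to -0.26 without siCtrl 2 and -0.05 without siPlat 2 (-0.26 to 0.73), and Sod1 to -0.12 without siPlat 1 (-0.12 to 0.41). The cause was not tested. A library left alone in its group was assumed to vary like the other group.

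For the single oocytes, members higher in aged oocytes were 4, and 0 per ERCC count in all and in low-share oocytes, and 2 by the median of the oocytes. Their median log2 ratio of -0.29 became -0.04 at a limit of 5%, -0.04 at 3%, 0.00 at 10%, -0.17 per nuclear count, -1.74 per ERCC count, -0.44 by the mean and -0.23 by the median of the oocytes. For low-share oocytes, in settings chosen after the data were seen, it was -0.86 per ERCC count, -0.03 per nuclear count and -0.05 by the median. In settings likewise added later, without the 3 high-share oocytes of lowest share the Prdx2 ratio by CPM turned from 0.75 to -0.41. That CPM has mitochondrial counts in the total, and the ratio without these oocytes was not computed per nuclear count. Each age is 1 sample, and Prdx3, Prdx6, Gclc and Gstp1 lie near the detection limit in high-share oocytes.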
